A study of Mus musculus with 4 samples.

Results

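The genes described here are the 8 that encode the core of store-operated calcium entry and its closest regulators: the channel subunits Orai1, Orai2 and Orai3, the calcium sensors Stim1 and Stim2, and the regulators Saraf, Cracr2a and Cracr2b. They were chosen by name, and all 8 were found among the 22554 genes of the deposited table of RNA-seq counts. The RNA came from group 2 innate lymphoid cells (ILC2s), type 2 cytokine-producing lymphocytes, that were sorted from the lungs of BALB/c mice aged 6 weeks. All cells were cultured overnight with IL-2, IL-7 and IL-33, and they received either vehicle (2 libraries) or compound 5D, a small molecule that blocks Orai channels (2 libraries). There was no culture without IL-33 and no genetic deletion among these libraries, so the values describe activated cells with and without the blocker. The sources used here do not say whether the 2 libraries of a group came from separate mice or cultures, so p-values measure the spread between these samples, which may be technical.

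Store-operated entry begins when calcium leaves the endoplasmic reticulum. STIM proteins sense the fall in the store, cluster where the endoplasmic reticulum meets the plasma membrane and open channels built from Orai subunits, the calcium release-activated calcium (CRAC) channels. In lymphocytes this calcium activates calcineurin and, through it, the NFAT transcription factors that drive cytokine genes.

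The 3 Orai genes encode closely related proteins. Of the residues that could be aligned, 66.4% were identical between mouse Orai1 and Orai2, 64.0% between Orai1 and Orai3, and 65.6% between Orai2 and Orai3, and 133 of the 240 positions aligned in all 3 proteins held the same residue. The coding stretch shown takes in the end of the segment before the first membrane helix, which lines the pore, and much of that helix. It was picked as the ungapped stretch of 20 codons with the most identical residues, and then the most identical bases, in all 3 genes. Its 20 residues are identical in all 3 proteins, while 49 of its 60 bases are. Even there the pore subunits can be told apart at the RNA level. The bases that differ between at least 1 pair of genes are in capitals, and each sequence is given 5′ to 3′ on the coding strand of mm10, joined across the intron that interrupts it.
Orai1 residues 87 to 106, chr5:123015516-123029083, plus strand: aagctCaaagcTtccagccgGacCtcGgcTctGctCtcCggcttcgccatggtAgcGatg
Orai2 residues 73 to 92, chr5:136150944-136161537, minus strand: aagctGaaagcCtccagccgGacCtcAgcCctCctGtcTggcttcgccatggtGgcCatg
Orai3 residues 60 to 79, chr7:127770166-127773565, plus strand: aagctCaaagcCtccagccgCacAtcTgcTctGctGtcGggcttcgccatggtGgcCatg
Across the whole mRNAs, the longest run of identical bases was 18 between Orai1 and Orai2, 17 between Orai1 and Orai3, and 29 between Orai2 and Orai3. No transcript of an Orai gene had a stretch of at least 150 bases with at least 95% identity to another Orai gene. A retained-intron transcript of Orai2 had such a stretch in common with Sipa1l3, so some Orai2 reads could have been shared with that gene.

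All 4 libraries were well covered, with totals from 20096555 to 28697265 counts. The 11 ILC2 markers, including Gata3, Il1rl1, Il5 and Il13, summed to between 10030 and 10220 normalized CPM (counts scaled to a common library size) in the vehicle libraries and to between 9405 and 9800 in the 5D libraries. Most of the sum, and of its difference, came from Il5 (4752 and 4710 with vehicle, 4377 and 4548 with 5D) and Il2ra (2221 and 2068, then 1771 and 1874). Klrg1, Il13 and Thy1 were also lower in both 5D libraries. Il1rl1, Rora and Ptprc were higher in both, and the groups overlapped for Gata3 (1091 and 1099, then 1095 and 1108), Il7r and Areg. Of the T cell markers, 5 of 6 had a row, and they summed to 25.6 to 26.1 CPM with vehicle and 27.2 to 27.7 with 5D, most of it from Cd3g, and Cd4 had 0 counts in every library. The 3 epithelial markers summed to 25.5 to 26.1 CPM with vehicle and 25.5 to 27.8 with 5D, nearly all of it Epcam, and the ILC3 markers with a row to 21.01 to 31.9 with vehicle and 26.1 to 27.4 CPM with 5D, most of it Il22. The 6 myeloid markers summed to at most 4.30 CPM and the 3 fibroblast markers to at most 0.172. Pecam1, the endothelial marker with a row, lay at 23.7 and 21.3 CPM with vehicle and at 19.9 and 15.7 with 5D, and the part of other cells in the values below was not tested.

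Orai1, the founding pore subunit of the CRAC channel, lies on chromosome 5 (mm10 and GENCODE M21, 123015074 to 123030456, plus strand) and received 1103 and 946 counts with vehicle against 1303 and 1431 with 5D. Scaled for depth, its RNA stood at 47.5 and 47.3 CPM with vehicle and at 48.01 and 50.05 CPM with 5D. Both 5D values were above both vehicle values, by a narrow margin. The exons of Orai1 overlap those of the antisense gene Gm2479 on 7 bases. The means were 47.4 ± 0.154 and 49.0 ± 1.44 CPM (SD, n = 2 each), a log2 fold change of 0.05 with a standard error of 0.09 (edgeR quasi-likelihood test, adjusted p = 0.949). The 95% interval ran from 0.907-fold to 1.18-fold, and the log2 fold change was 0.017 without 5D replicate 2 and 0.075 without 5D replicate 1.

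Orai2, a second pore subunit that forms mixed channels with Orai1, lies on the minus strand of the same chromosome (136147459 to 136170713) and had 1402 and 1123 counts with vehicle against 1702 and 1743 with 5D. Its normalized levels were 60.4 and 56.1 CPM with vehicle and 62.7 and 60.96 CPM with 5D. Again both 5D libraries lay above both vehicle libraries, and the margin between the nearest libraries was smaller than the distance between the vehicle libraries themselves. The means of 58.2 ± 3.003 and 61.8 ± 1.24 CPM (SD, n = 2 each) gave a log2 fold change of 0.09 with a standard error of 0.08, which did not pass the test (adjusted p = 0.888). The interval of the fold change was 0.937 to 1.20, and the log2 value was 0.032 without vehicle replicate 2 and 0.14 without vehicle replicate 1.

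Orai3, the third pore subunit, lies on chromosome 7 (127769815 to 127775150, plus strand) and had the fewest counts of the family, 387 and 366 counts with vehicle and 442 and 431 with 5D. These corresponded to 16.7 and 18.3 CPM and to 16.3 and 15.1 CPM. Here the 5D pair lay beneath the vehicle pair, the direction opposite to Orai1 and Orai2. The means were 17.5 ± 1.15 and 15.7 ± 0.857 CPM (SD, n = 2 each), giving a log2 fold change of -0.16 and a standard error of 0.14 (adjusted p = 0.875), and the fold change had an interval from 0.728 to 1.11. The log2 value was -0.090 without vehicle replicate 2 and -0.10 without 5D replicate 2. It was -0.23 without vehicle replicate 1 and -0.22 without 5D replicate 1.

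Stim1, the main sensor of the endoplasmic reticulum store, lies on chromosome 7 (102267806 to 102437319, plus strand) and was counted 2411 and 2058 times with vehicle and 2518 and 2711 times with 5D. Its levels were 103.8 and 102.8 CPM with vehicle and 92.8 and 94.8 CPM with 5D. The libraries of each group were close together, and the 5D values were the lower ones. The means of 103.3 ± 0.684 and 93.8 ± 1.44 CPM (SD, n = 2 each) differed by a log2 fold change of -0.14 with a standard error of 0.06. Its unadjusted edgeR p of 0.0528 was the lowest among the 7 genes tested, and its adjusted p was 0.682. Its interval, 0.823-fold to 1.00-fold, ended at no change on the upper side.

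Stim2, the second sensor, which responds to smaller losses of stored calcium and sets basal entry, lies on chromosome 5 (53998499 to 54121057, plus strand) with 1145 and 919 counts with vehicle and 1259 and 1531 with 5D. Its levels were 49.3 and 45.9 CPM with vehicle and 46.4 and 53.5 CPM with 5D, so the groups overlapped. The 5D libraries stood further apart than the vehicle libraries, as the means of 47.6 ± 2.39 and 49.97 ± 5.06 CPM show (SD, n = 2 each). Stim2 had a log2 fold change of 0.07 and a standard error of 0.10 (adjusted p = 0.933, fold interval 0.903 to 1.22), and without 5D replicate 2 the log2 fold change was -0.040.

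Saraf, a membrane protein of the endoplasmic reticulum that promotes the slow inactivation of store-operated entry, lies on chromosome 8 (34154575 to 34170821, plus strand) and had by far the most counts of the 8. There were 5695 and 5556 counts with vehicle and 6779 and 7311 with 5D, that is 245.2 and 277.6 CPM and 249.8 and 255.7 CPM. The vehicle libraries spanned the 5D libraries. The means of 261.4 ± 22.9 and 252.7 ± 4.18 CPM (SD, n = 2 each) gave a log2 fold change of -0.05 with a standard error of 0.06 (adjusted p = 0.921, fold interval 0.881 to 1.06). Vehicle replicate 2 was the highest of the 4, and without it the log2 fold change was 0.041.

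Cracr2a, a calcium-binding regulator that stabilizes the Orai1 and STIM1 complex, lies on chromosome 6 (127561338 to 127674248, plus strand) and was low in every library, at 64 and 106 counts with vehicle and 90 and 124 with 5D. The levels of 2.76 and 5.30 CPM with vehicle enclosed the 3.32 and 4.34 CPM with 5D. With so few counts and such a spread the fit was wide. Cracr2a had a log2 fold change of -0.06 and a standard error of 0.33 (adjusted p = 0.992), its fold interval ran from 0.583 to 1.57, and it turned to 0.47 without vehicle replicate 2, to 0.11 without 5D replicate 1 and to 0.022 with limma-voom. On 664 bases the exons of Cracr2a overlap those of Gm43634, a gene on the same strand, so a share of its counts is uncertain.

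Cracr2b, the paralogue of Cracr2a (36.9% identical residues in the aligned part), lies on chromosome 7 (141461094 to 141466613, plus strand) and was at or below detection. It had 1 and 0 counts with vehicle and 2 and 0 with 5D. All 4 values were under the level that 3 counts represent, between 0.105 and 0.150 CPM depending on the library. No fold change is given, and the exons of Cracr2b overlap the antisense gene Gm10575 on 1405 bases, so even these few counts cannot be assigned with certainty.

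**Figure D1:**
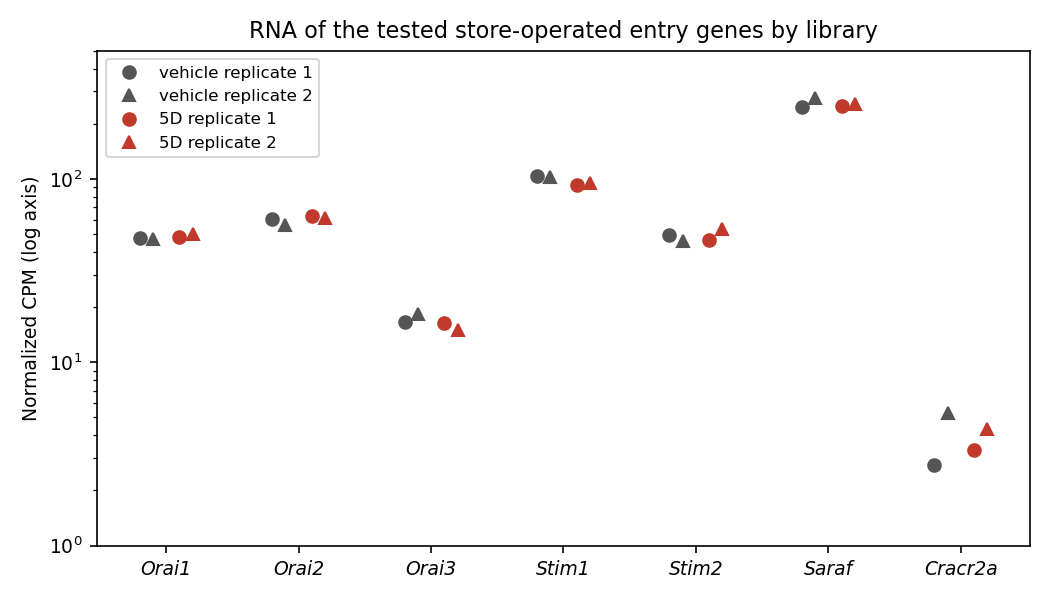
Normalized CPM of the 7 tested genes in each library, not corrected for length, on a log axis, with vehicle and 5D libraries as separate points. Saraf lies between 245.2 and 277.6 CPM, Stim1 between 92.8 and 103.8, Orai2, Orai1 and Stim2 between 45.9 and 62.7, Orai3 between 15.1 and 18.3, and Cracr2a between 2.76 and 5.30, and within each gene the 4 libraries lie close together compared with the distances between most genes.

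Levels of different genes were compared per kilobase, since a longer transcript yields more reads. Divided by the length of all exons of a gene, Saraf came first at a mean of 87.8 CPM per kilobase (83.7 to 94.8 over the 4 libraries), followed by Orai1 at 21 (20.6 to 21.8). Orai2 at 9.88, Stim2 at 9.51 and Stim1 at 9.50 had overlapping ranges and could not be ordered. Orai3 followed at 7.74 (7.04 to 8.54), then Cracr2a at 0.502 (0.352 to 0.677) and Cracr2b at 0.0106 (0 to 0.0267).

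Set among the 17369 tested genes with a known length, Saraf was at percentile 95.9, Orai1 at 83.7, Orai2 at 71.8, Stim2 at 71.2, Stim1 at 71.1, Orai3 at 67.6 and Cracr2a at 29.7. The pore subunits and sensors were thus all in the upper part of the genes tested, and the regulators lay at both ends of the list. The order in the middle depended on the length used. Stim1 has 9 annotated transcripts whose exons together cover 10371 bases, against 4362 for the longest of them, and per kilobase of the longest transcript Stim1 stood at 22.6 CPM, close below Orai1 at 25.7 and above Orai2 at 15.05, Stim2 at 9.89 and Orai3 at 7.74. Saraf remained first at 109.3 and Cracr2a and Cracr2b last at 0.515 and 0.0172.

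The make-up of the Orai RNA was similar in all 4 libraries. Per kilobase of exon, Orai1 made up 53.9% and 53.7% of it with vehicle and 53.9% and 56.1% with 5D. Orai2 made up 25.9% and 24.1% with vehicle and 26.6% and 25.8% with 5D. Orai3 made up the rest, 20.3% and 22.3% with vehicle and 19.6% and 18.1% with 5D. Corrected for length, Orai1 was therefore the leading transcript of the family in every library, and Orai3 had the smallest share. Which Orai2 transcripts the cells used was not tested. In raw counts, without a length, Orai2 came first with a mean of 48.1%, ahead of Orai1 with 38.6% and Orai3 with 13.3%, because the exons of Orai2 cover 6077 bases against 2295 for Orai1 and 2141 for Orai3.

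Within the 2 sensors, Stim1 made up 51.0% and 52.6% of the STIM RNA per kilobase of exon with vehicle and 49.8% and 46.7% with 5D. By the longest transcript its mean share was 69.5%, and by counts 66.9%. Per kilobase of exon neither sensor led in every library, so a lead of Stim1 depended on the measure used. The length of a gene is the same in every library, so it cancels when the ratio of the sensors is compared between libraries. Stim1 had 2.11 and 2.24 counts for each count of Stim2 with vehicle and 2.00 and 1.77 with 5D, lower in both 5D libraries, a mean difference of -0.21 on the log2 scale.

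From the same Stim1 counts, Stim1 was lower relative to Orai1, the channel it opens. There were 2.19 and 2.17 counts of Stim1 for each count of Orai1 with vehicle and 1.93 and 1.89 with 5D, a mean difference of -0.19 on the log2 scale. Saraf, which acts on STIM1, had 2.36 and 2.70 counts for each of Stim1 with vehicle and 2.69 and 2.70 with 5D, so the groups overlapped and vehicle replicate 1 stood below the other libraries. These ratios and that of the sensors all use the Stim1 counts, so they are not separate observations. How often ratios of other genes separate the groups was not computed. The ratios given here are descriptions of 4 libraries. An exact permutation test of 2 libraries against 2 cannot give a two-sided p below 0.333, so none was run on them.

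**Figure D2:**
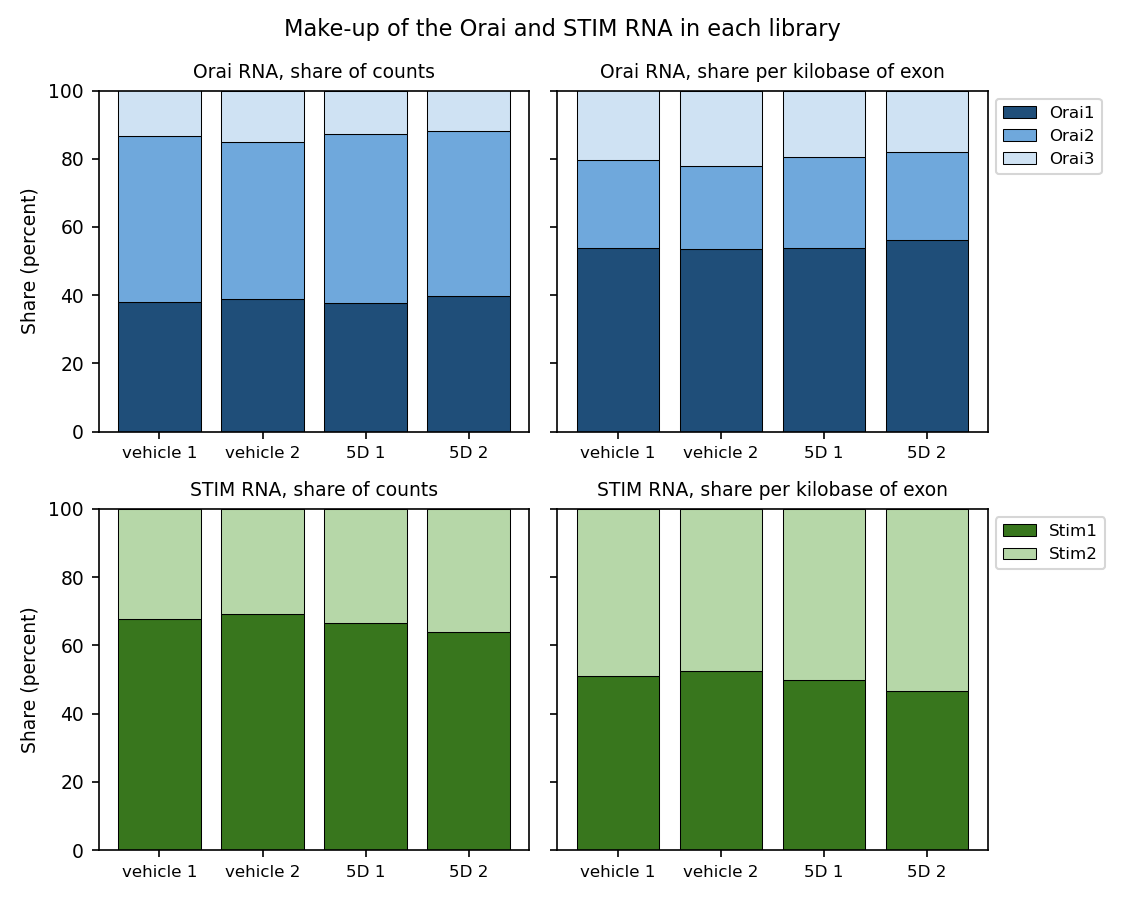
Shares, in percent, of Orai1, Orai2 and Orai3 in the Orai RNA and of Stim1 and Stim2 in the STIM RNA of each library, by counts and per kilobase of exon, as given above each panel. Orai1 leads the Orai family per kilobase of exon and Orai2 by counts. The 4 libraries differ from each other by a few percentage points, with Stim1 taking a lower share in both 5D libraries.

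None of the 7 genes that could be tested passed the test in either direction. In the edgeR quasi-likelihood test over 17650 genes, 5 genes (0.0283%) were higher and 12 (0.068%) lower in the 5D libraries at an adjusted p-value under 0.05, and none of them was an Orai, STIM or regulator gene. Before adjustment, 618 genes (3.5%) had a p-value under 0.05 and a higher level with 5D and 678 (3.84%) a lower one, and again 0 of the 7 were among them. DESeq2, limma-voom and the other settings tried also gave 0 of the 7 at that threshold after adjustment, with no adjusted p-value for Orai3 and Cracr2a from DESeq2. Cracr2b was left out of the test by the filter on low counts.

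Groups that did not overlap were common among all genes: both 5D libraries lay above both vehicle libraries in 18.7% of the genes tested, and below them in 18.8%. Among the 7, Orai1 and Orai2 were of the first kind and Orai3 and Stim1 of the second, 2 of 7 in each direction, close to that background for so few genes. The median log2 fold change of the 7 was -0.05, with a range from -0.16 to 0.09, and that of all genes tested was -0.0016.

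The precision differed between the genes. Saraf, Stim1, Orai2, Orai1 and Stim2 had standard errors from 0.06 to 0.10 on the log2 scale, Orai3 had 0.14, and Cracr2a had 0.33. For Orai1, Orai2 and both sensors, the upper ends of the intervals reached no further than 1.22-fold and the lower ends no further than 0.823-fold. In bulk RNA, a change in the share of cells that make a transcript and a change in the RNA per cell cannot be told apart. RNA levels of the channel genes also say nothing of whether the channels were open, which is what 5D acts on.

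**Figure D3:**
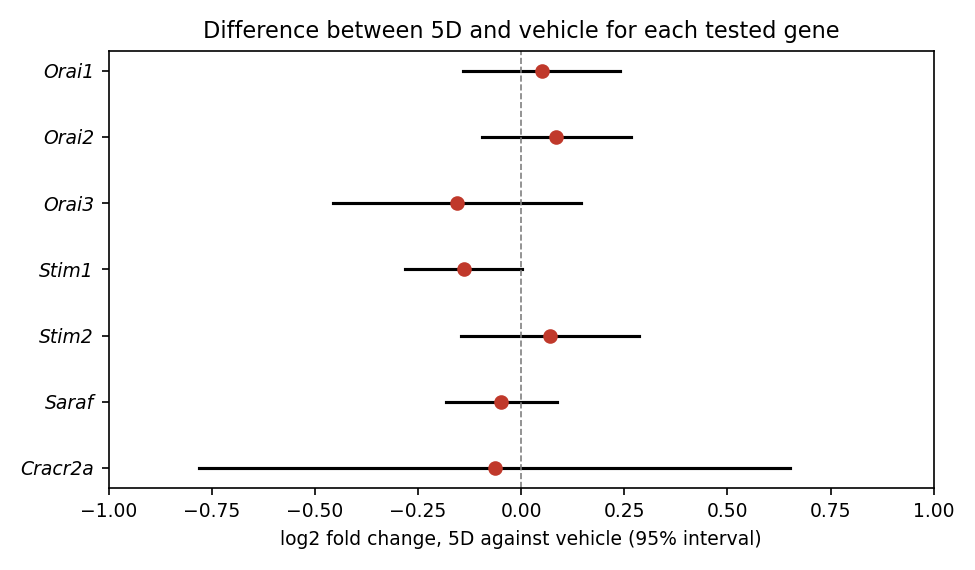
The log2 fold change between 5D and vehicle of each tested gene (point) with its 95% interval (bar) from the edgeR fit, and a dashed line at no change. All 7 intervals include 0, that of Stim1 (-0.28 to 0.0020) by the least, and Cracr2a has the widest (-0.78 to 0.65).

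The surrounding machinery was followed with 4 lists: proteins of the contact sites between the endoplasmic reticulum and the plasma membrane, partners and modifiers of STIM, partners and modifiers of Orai, and the TRPC channels that have been linked to store-operated entry. They named 49 genes, of which 42 had a row and 37 were tested. At an adjusted p-value under 0.05, 0 were higher and 0 lower, against 0.0283% and 0.068% of all genes. Before adjustment, 2 had a p-value under 0.05 and were higher and 0 were lower, against 3.5% and 3.84% of all genes. In 7 the groups separated upwards with 5D and in 8 downwards, against 18.7% and 18.8% of all genes.

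Of the contact-site genes, 14 of 17 were tested. Esyt1, an extended synaptotagmin that tethers the 2 membranes, had the most counts of them (not corrected for length), with 1012 and 984.1 CPM with vehicle and 965 and 937.9 with 5D. Its groups did not overlap, and the log2 fold change of -0.07 did not pass the edgeR test (adjusted p = 0.752). Anxa6, an annexin that binds membranes in the presence of calcium, came next with 584.7 and 572.6 CPM and with 551 and 553.7 CPM, a log2 fold change of -0.07 (adjusted p = 0.778).

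Esyt2, a second extended synaptotagmin, stood at 93.9 and 86.1 CPM with vehicle and at 101.4 and 107.7 CPM with 5D. It was higher in both 5D libraries, and the log2 fold change of 0.22 with a standard error of 0.07 had an edgeR p of 0.0120 and an adjusted p of 0.553. The 12 contact-site genes with a mean of at least 1 CPM had a median log2 fold change of -0.03 and ranged from -0.27 to 0.22. Stimate, the contact-site protein that promotes STIM1 clustering, was among them with 27.0 and 30.4 CPM with vehicle and 33.6 and 30.5 CPM with 5D, and is named here after its values were seen.

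Of the STIM partners, 13 of 14 were tested, and all 13 had a mean of at least 1 CPM. Pdia3, an oxidoreductase of the endoplasmic reticulum that acts on STIM1 cysteines, had the most counts of these, with 1480 and 1466 CPM with vehicle and 1447 and 1523 CPM with 5D. Surf4, a cargo receptor that binds STIM1, had 621.9 and 638.6 CPM and 626.8 and 616.6 CPM. Both overlapped between the groups, with log2 fold changes of 0.01 (adjusted p = 0.981) and -0.02 (adjusted p = 0.958) in the edgeR test.

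Unc93b1, a chaperone of endosomal Toll-like receptors that also binds STIM1, was the STIM partner with the largest difference. It had 8.998 and 7.60 CPM with vehicle and 10.5 and 12.0 CPM with 5D. Both 5D libraries were above both vehicle libraries, and the log2 fold change of 0.43 with a standard error of 0.18 had an edgeR p of 0.0328 and an adjusted p of 0.629. The median over the 13 genes was 0.01, with a range from -0.14 to 0.43.

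Of the Orai partners, 8 of 11 were tested, and the 7 with a mean of at least 1 CPM had a median log2 fold change of 0.07, from -0.35 to 0.11, while over all 8 the median was 0.035 and the lowest value -0.68. Calm2, which encodes the calcium sensor calmodulin, had 522.6 and 534.1 CPM with vehicle and 521.7 and 536.2 CPM with 5D. The groups overlapped, and the log2 fold change was 0.0019 (adjusted p = 0.997 in the edgeR test).

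TRPC channels were almost undetected. Of the 7 genes, 3 had a row and 2 were tested. Trpc1 had 0 and 0.300 CPM with vehicle and 0 and 0.210 with 5D. These levels are either 0 or a few counts, and no fold change is given.

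**Figure D4:**
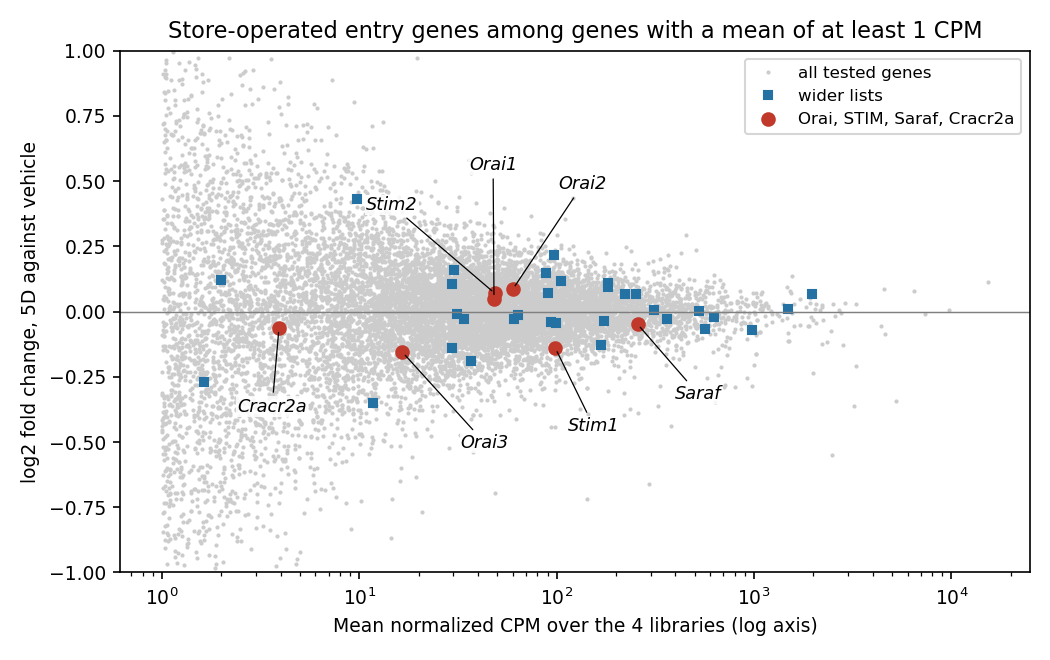
Log2 fold change between 5D and vehicle against the mean level in normalized CPM (log axis) for the 12331 tested genes with a mean of at least 1 CPM (grey, 92 of them beyond the axis limits of -1 and 1), with the 7 store-operated entry genes in red and the 32 genes of the 4 lists in blue. The red points lie between -0.16 and 0.09, within the grey cloud at their level, and the blue points between -0.35 and 0.43.

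For each of the 7 genes the profile over the 4 libraries was compared with those of the 29 genes of the 4 lists that had a mean of at least 10 CPM, as the root mean square of the differences in log2 CPM after each gene's own mean had been removed. Among the nearest were Pdia3 (0.0195) for Orai1, Zdhhc6 (0.039) for Orai2, and Stc2 (0.0172) and Selenok (0.0274) for Orai3. The sensors had Anxa6 (0.0374) and Esyt1 (0.0444) nearest to Stim1, and Sept2 (0.0232) and Osbpl8 (0.0566) nearest to Stim2. For Saraf they were Mapk3 (0.0253) and Surf4 (0.0553). Cracr2a had no near profile, since its closest, Vapb at 0.216 and Mapk3 at 0.257, lay several times further away than those of the other 6 genes. With 4 libraries, and differences this small between them, these distances describe the libraries and carry no test.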

How the data were processed

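Reads from the 4 libraries were processed by the authors with STAR 2.6.1 and Partek on mm10 (CASAVA 1.8.2 is also named in the submitters' processing notes). The authors deposited estimated counts per gene, not normalized, of which 51.7% to 54.8% per library were whole numbers (tolerance 1e-06). Gene names that a spreadsheet had turned into dates (21) were recovered by position for 19. The labels and the methods give different culture times and RNA inputs.

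Counts were rounded and tested with edgeR 4.0.16 (R 4.3.3; quasi-likelihood, two-sided, Benjamini-Hochberg adjustment over all genes) after upper quartile normalization (0.75). The authors' filter was kept (normalized counts averaging 1 or more and summing to 10 or more), which left 17650 genes and removed 4904. The authors' own test, Gene Set Analysis in Partek, was not run. The common biological coefficient of variation was 8.51%. Replicates differed beyond sampling noise (chi-square per degree of freedom 6.1 for vehicle and 6.66 for 5D). CPM values use the normalized library sizes, and lengths and positions come from GENCODE M21. Proteins were aligned in pairs with Biopython 1.88 and the Orai proteins together with MAFFT 7.526. Transcripts were searched with BLAST 2.17.0.

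All 8 genes are named. From the wider lists, genes with an unadjusted p-value under 0.05 and the 2 with the highest mean level of each list are named, as well as the 2 nearest profiles for each gene. Some genes that this rule names are not reported here. The genes and lists were chosen with earlier results of these data known. Alternatives were TMM and DESeq2 size factors, DESeq2 1.42.0, limma-voom (3.58.1), other filters, mitochondrial genes left out, a replicate block and each library left out. The script was tested on simulated counts. Intervals and floors cover the spread or counting of these libraries only.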

Additional observations from a re-analysis of the deposited data

How the results depend on the processing

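Of 84 log2 fold changes of the 7 genes under the alternatives, 79 kept their direction and 5 turned, and none passed an adjusted p-value of 0.05 (the smallest was 0.438). Those that turned belonged to Stim2, Saraf and Cracr2a, whose values with 1 library left out ranged from -0.040 to 0.16, from -0.14 to 0.041 and from -0.47 to 0.47 (0.11 without 5D replicate 1), and to Cracr2a with limma-voom (0.022). With 1 library left out the other ranges were 0.017 to 0.075 for Orai1, 0.032 to 0.14 for Orai2, -0.23 to -0.090 for Orai3 and -0.16 to -0.13 for Stim1. DESeq2 gave no adjusted p-value for Orai3 and Cracr2a. The background moved more: genes past that threshold, higher and then lower, numbered 16 and 42 with DESeq2's Wald test, 9 and 23 with limma-voom, 11 and 35 without a filter, and 9 and 32 with a replicate block. With 1 library left out they ranged from 3 to 73 and from 12 to 107. There were 73 and 107 without vehicle replicate 1, 32 and 47 without vehicle replicate 2, and 3 and 12 without 5D replicate 2. In these fits the lone library of a group is assumed to vary like the other group. Deviations from the group mean in vehicle replicate 1 and 5D replicate 1 had r = 0.0606 over 8737 genes. With 2 libraries a group, this r mixes any shared effect with counting noise. It cannot decide whether libraries with the same number were paired. The replicate block put 0 of the 7 genes past the threshold. Per kilobase of the longest transcript, levels were 25.7 for Orai1, 15.05 for Orai2, 22.6 for Stim1 and 109.3 for Saraf, and the Stim1 level ranged from 9.34 to 9.69 with 1 library left out. Mean shares by the longest transcript and by counts were 53.0% and 38.6% for Orai1, 31.02% and 48.1% for Orai2, 15.98% and 13.3% for Orai3, and 69.5% and 66.9% for Stim1. The medians of the lists over genes with at least 1 CPM were chosen after seeing the data. With 2 libraries a group, small differences could not be detected, least of all for Cracr2a and Cracr2b.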
